A study of Mus musculus with 40 samples.

Results

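The comparison described here sets YUMM2.1 melanoma cells that carry dHLH-Bmal1 against YUMM2.1 cells that carry WT-Bmal1, both with the control hairpin shNC. It rests on 4 of the 40 libraries of the series, the 2 libraries labelled dHLH-Bmal1 shNC and the 2 labelled WT-Bmal1 shNC, which were chosen by their labels and not by any measured value. The series holds RNA of cultured mouse melanoma lines in 20 groups of 2 libraries, sequenced with QuantSeq, which counts each transcript by a read near its poly(A) end. YUMM2.1 is a line from a mouse melanoma with an activated Braf allele, loss of 1 Cdkn2a copy and a stabilized beta-catenin. All cells compared here keep their own Bmal1 gene. The construct came from a lentivirus that also carries GFP, the cells were sorted by GFP as a pool, and a further lentivirus with the shNC hairpin was selected with puromycin. The study's methods describe lines of these names both with and without an earlier Bmal1 luciferase reporter virus, and which were sequenced is not given in the sources used here. WT-Bmal1 is the full-length protein, and dHLH-Bmal1 lacks the basic helix-loop-helix part that binds DNA. Each group is therefore 1 transduced line, its 2 libraries are called biological duplicates by the study, and p-values measure only the spread between such libraries. EV shNC, the line with the empty vector and the same hairpin, gives the background level of each gene.

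Bmal1 (gene symbol Arntl) pairs with Clock, and the pair binds E-boxes to drive the Per and Cry repressors, the REV-ERB receptors Nr1d1 and Nr1d2, and the PAR bZIP output factors Dbp and Tef. The Per and Cry proteins hold the pair in check, and the REV-ERB receptors repress Arntl and Cry1, which closes the loops of the circadian clock. Melanoma cells move between a neural crest or melanocytic state, marked by Sox10, and an undifferentiated mesenchymal state, marked by collagens, fibronectin and Axl. The comparison asks which transcripts differ between lines that carry Bmal1 with and without its DNA binding part, when the endogenous protein is present in each.

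Library totals were 14718654 and 6347481 counts with dHLH-Bmal1, 7587633 and 8886824 with WT-Bmal1, and 8217193 and 9232728 with EV, within a range of 3643332 to 22970049 over the series. Levels are given as CPM, counts per 1000000 of the library total after edgeR's TMM scaling over the 24 YUMM2.1 libraries, in the order replicate 1, replicate 2. Since reads come from the 3′ end, CPM does not grow with transcript length. Fold changes come from edgeR's quasi-likelihood test, with p-values adjusted by Benjamini-Hochberg over all tested genes, in a fit of 8 libraries (dHLH-Bmal1, WT-Bmal1 and EV with shNC, and EV with shMyh9#2), and a gene is called at an adjusted p under 0.05. The smallest two-sided p that exact permutation of 2 libraries against 2 allows is 0.333, and no such test was made. Arntl itself (chromosome 7, 113207465 to 113314126) was at 48.8 and 37.0 CPM with dHLH-Bmal1, 34.9 and 33.3 CPM with WT-Bmal1 and 30.8 and 26.3 CPM with EV. The counts do not separate the endogenous transcript from that of the construct, so the level of Arntl does not check the labels. Of the melanocytic markers, Mitf was at 17.9 CPM on average with dHLH-Bmal1 and 19.5 CPM with WT-Bmal1, while Tyrp1, Dct and Mlana had 0 counts in all 4 libraries. Markers of other cell types were low or absent in most cases: of 17 such genes, 8 had 0 counts in the 4 libraries, Ptprc and Epcam among them, and the 17 together summed to 30.9 and 29.7 CPM with dHLH-Bmal1 and 32.05 and 30.3 CPM with WT-Bmal1. Of the 5 of them that were tested, Cdh5, Pdgfrb and Pecam1 among them at group means of 5.27 to 12.1 CPM, edgeR called 0, and 2 had an unadjusted p under 0.05: Pdgfrb, a pericyte and fibroblast receptor (log2 fold change 1.06), and Cdh5, an endothelial cadherin (-0.62). Their part in the results was not tested.

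Sox10 and 4 other melanocytic lineage genes were lower with dHLH-Bmal1 than with WT-Bmal1, the type I collagen genes Col1a1 and Col1a2 were higher, and 5 clock genes were lower while Cry1 was higher. Of 14027 genes tested, 650 were called, or 4.63%, with 308 higher (2.2%) and 342 lower (2.44%) with dHLH-Bmal1, and 2603 had an unadjusted p under 0.05. A change of at least 2-fold was seen in 109 of the higher and 115 of the lower genes, and a change of at least 4-fold in 47 and 47. The count moved most when a library was left out: it was 166 without dHLH-Bmal1 replicate 1, the deepest of the 4, 229 without dHLH-Bmal1 replicate 2, 316 without WT-Bmal1 replicate 2 and 814 without WT-Bmal1 replicate 1. Counts also fell to 284 when the 18 libraries of the 9 hairpin groups were fitted together and to 246 in a fit of all 40 libraries.

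**Figure D1:**
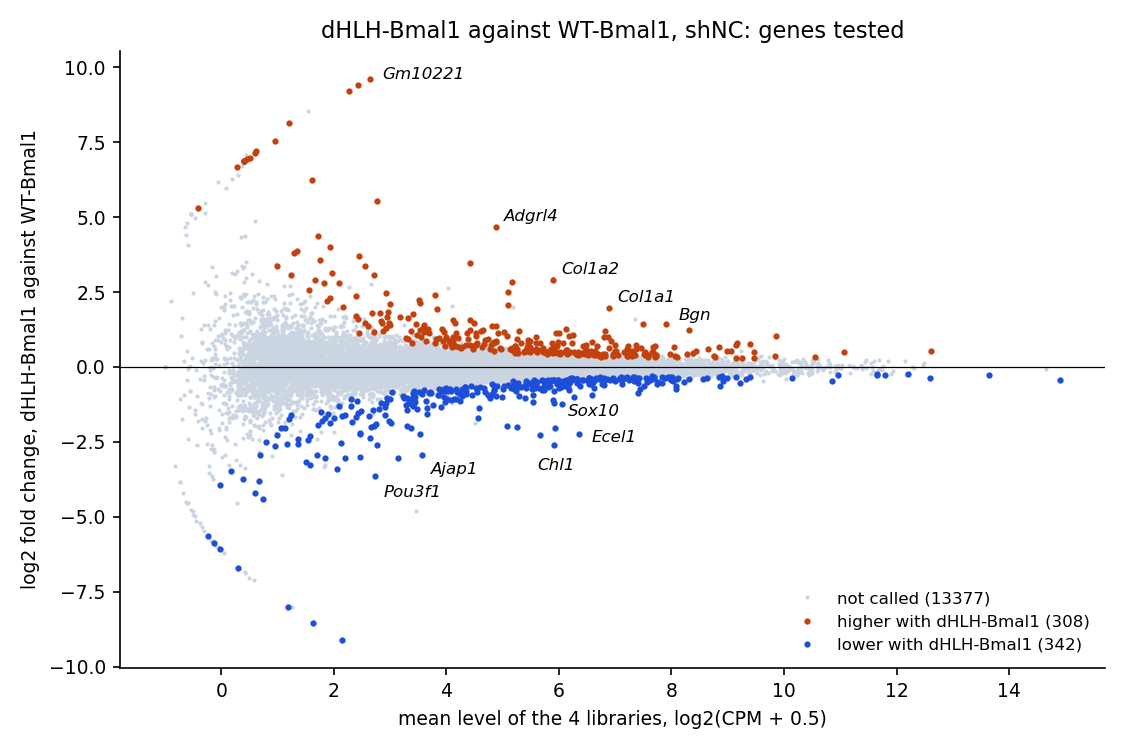
Log2 fold change of dHLH-Bmal1 against WT-Bmal1 (shNC; vertical axis) against the mean level of the 4 libraries (horizontal axis, log2 of CPM + 0.5) for the 14027 genes tested, with 308 called higher, 342 called lower and the rest in grey. The points that lie farthest from 0 are genes with 0 or few counts in 1 group, whose fitted values depend on the prior count.

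The clock genes Nr1d1, Nr1d2, Dbp, Tef and Per3 were lower with dHLH-Bmal1, and Cry1, a repressor of the Bmal1-Clock pair, was higher. Of 23 clock genes (activators, repressors, REV-ERB and ROR receptors, and PAR bZIP, Nfil3 and DEC outputs), 20 passed the filter on low counts, and 5 fell and 1 rose with dHLH-Bmal1, a share of 30% against 4.63% of all genes. Their median log2 fold change was -0.18, against 0.0044 over all genes tested. The study examined clock genes in the hairpin-free lines with the same constructs, and reports that dHLH-Bmal1 suppressed Dbp, Nr1d1 and Nr1d2 there. Its text does not name the line these were set against. Between dHLH-Bmal1 and EV with shNC, Nr1d1 was called lower, and Dbp and Nr1d2 were not called (values below).

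The REV-ERB receptors are nuclear receptors that repress transcription. Nr1d2 (chromosome 14, 18204054 to 18239127) was at 26.8 and 30.6 CPM with dHLH-Bmal1 and at 60.8 and 66.8 CPM with WT-Bmal1, and EV lay at 34.2 and 36.2 CPM. The groups did not overlap, and Nr1d2 fell by 1.18 on the log2 scale (standard error, SE, 0.13, edgeR adjusted p = 3.4e-05). Nr1d1 (chromosome 11, 98767932 to 98775333) was at 3.90 and 4.17 CPM with dHLH-Bmal1, 9.08 and 10.8 CPM with WT-Bmal1, and 8.48 and 10.9 CPM with EV. Its log2 fold change was -1.32 (SE 0.27, edgeR adjusted p = 0.0082), so that for Nr1d1 the dHLH-Bmal1 libraries stood below EV, while for Nr1d2 the WT-Bmal1 libraries stood above it. Against EV, Nr1d1 changed by -1.27 with dHLH-Bmal1 (edgeR adjusted p = 0.0013) and by 0.051 with WT-Bmal1 (edgeR adjusted p = 0.90), and Nr1d2 by -0.30 (edgeR adjusted p = 0.092) and 0.88 (edgeR adjusted p = 5.9e-05). The ROR receptors, activators that share sites with REV-ERB, were not called: Rora had a log2 fold change of -0.14 and Rorb of -0.16.

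Dbp and Tef, output factors that bind D-boxes, followed Nr1d2 in their position against EV. Dbp (chromosome 7, 45705088 to 45710203) was at 10.5 and 10.6 CPM with dHLH-Bmal1, 18.6 and 25.8 CPM with WT-Bmal1, and 12.4 and 8.82 CPM with EV. The log2 fold change of Dbp between the constructs was -1.09 (SE 0.23, edgeR adjusted p = 0.011). Tef (chromosome 15, 81802421 to 81826863) was at 49.4 and 58.0 CPM with dHLH-Bmal1, 82.7 and 98.7 CPM with WT-Bmal1 and 47.9 and 56.7 CPM with EV, a log2 fold change between the constructs of -0.78 (SE 0.14, edgeR adjusted p = 0.0031). In both genes the dHLH-Bmal1 and EV libraries overlapped, and the WT-Bmal1 libraries were above them. Against EV, Dbp changed by 1.09 and Tef by 0.81 with WT-Bmal1 (edgeR adjusted p = 0.0017 and 2.5e-04), and by 0.0059 and 0.033 with dHLH-Bmal1 (edgeR adjusted p = 0.99 and 0.89). Hlf, the third PAR bZIP factor, was below the filter. Nfil3, a repressor at the same D-boxes, had a log2 fold change of 0.51 (edgeR adjusted p = 0.17), Bhlhe40 of -0.21 and Bhlhe41 of -0.30, and none of these was called.

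Among the repressors, Per3 (chromosome 4, 151003652 to 151044665) was lower and Cry1 (chromosome 10, 85131700 to 85185064) higher with dHLH-Bmal1. Per3 was at 12.2 and 7.37 CPM with dHLH-Bmal1 and 18.7 and 21.8 CPM with WT-Bmal1, and its log2 fold change was -0.997 (SE 0.23, edgeR adjusted p = 0.020). Cry1 was at 32.5 and 32.9 CPM with dHLH-Bmal1, 16.6 and 18.4 CPM with WT-Bmal1 and 18.4 and 19.3 CPM with EV, a log2 fold change between the constructs of 0.89 (SE 0.16, edgeR adjusted p = 0.0032). For Cry1 the dHLH-Bmal1 libraries stood apart and WT-Bmal1 lay close to EV. Per1 was at 3.28 and 4.81 CPM with dHLH-Bmal1 and 7.48 and 7.41 CPM with WT-Bmal1, and its log2 fold change of -0.93 (95% interval -1.68 to -0.18, edgeR adjusted p = 0.16) was not called. Per2 (log2 fold change -0.19, 95% interval -0.84 to 0.46), Cry2 (0.18, -0.22 to 0.58) and Ciart (-0.17, -0.94 to 0.60) were not called either. The activators Clock (0.23, -0.033 to 0.49) and Arntl (0.34, 0.016 to 0.66, edgeR adjusted p = 0.24) were not called, and 0 of 8 clock kinases and ligases were called, with a median log2 fold change of 0.012.

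Nr1d2 and Cry1 kept their calls with each of the 4 libraries left out. Nr1d1 (log2 fold change -1.44 to -1.18, edgeR adjusted p up to 0.14) and Dbp (-1.30 to -0.82, up to 0.15) lost theirs without WT-Bmal1 replicate 2 and without either dHLH-Bmal1 library, Per3 (-1.46 to -0.74, up to 0.17) without WT-Bmal1 replicate 2 or dHLH-Bmal1 replicate 2, and Tef (-0.91 to -0.64, up to 0.11) without dHLH-Bmal1 replicate 1. Nr1d1, Dbp and Tef overlap 1 gene on the other strand each and Per3 overlaps 1 on its own strand, and whether counting used the strand is not given in the sources used here.

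**Figure D2:**
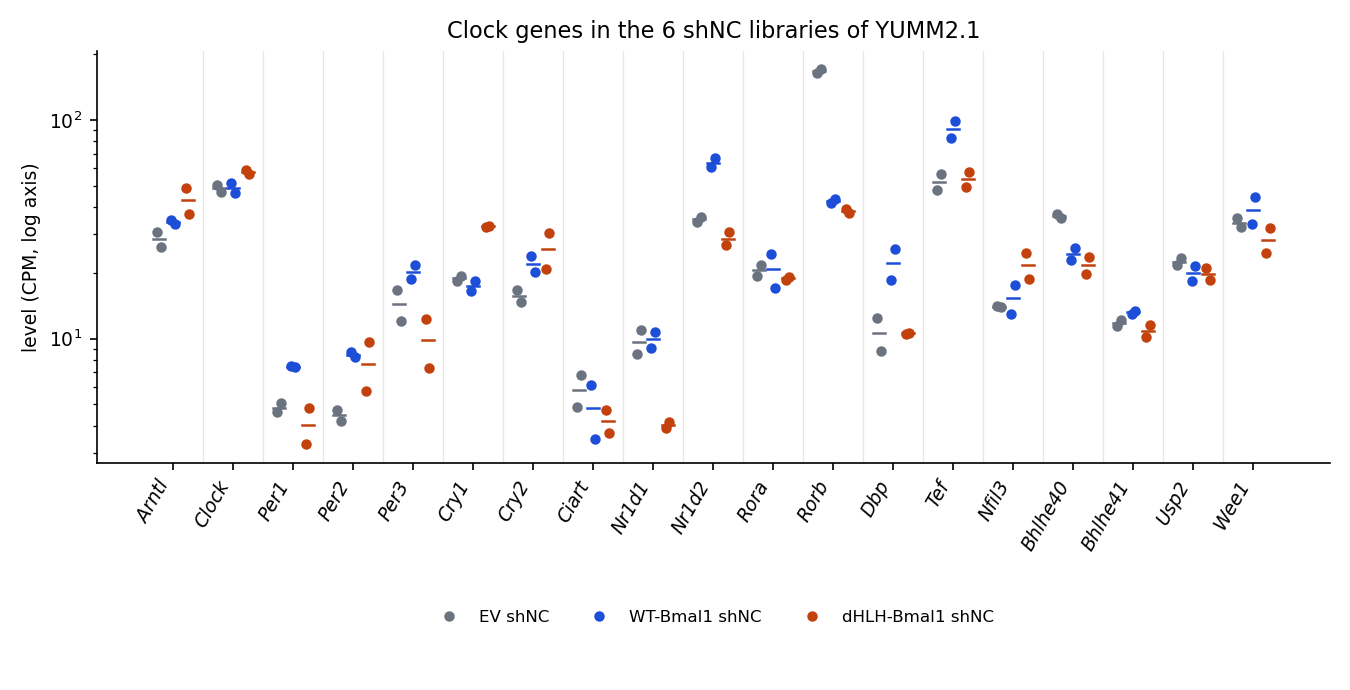
Levels of 19 clock genes (CPM, log axis) in the shNC libraries with EV, with WT-Bmal1 and with dHLH-Bmal1, 1 point per library with a bar at the mean. Nr1d1, Nr1d2, Dbp, Tef and Per3 lie lower and Cry1 lies higher with dHLH-Bmal1 than with WT-Bmal1, and Rorb is highest with EV.

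The promoters of the called clock genes are shown because Bmal1-Clock binds E-boxes and the deleted part of dHLH-Bmal1 is the part that contacts them. RefSeq windows (GRCm38.p6) from 250 bases before to 50 after a start were searched on both strands for the E-box CACGTG, the related CACGTT and the D-box TTANGTAA, and matches are in capitals. Of the 23 clock genes, 19 had a window.
Nr1d1, chr11:98775328-98775627, minus strand: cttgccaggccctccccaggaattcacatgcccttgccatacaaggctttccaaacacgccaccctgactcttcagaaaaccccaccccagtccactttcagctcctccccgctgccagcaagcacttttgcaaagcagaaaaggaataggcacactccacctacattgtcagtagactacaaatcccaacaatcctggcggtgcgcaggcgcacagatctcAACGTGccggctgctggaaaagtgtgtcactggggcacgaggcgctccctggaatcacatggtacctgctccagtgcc
Per3, chr4:151044616-151044915, minus strand: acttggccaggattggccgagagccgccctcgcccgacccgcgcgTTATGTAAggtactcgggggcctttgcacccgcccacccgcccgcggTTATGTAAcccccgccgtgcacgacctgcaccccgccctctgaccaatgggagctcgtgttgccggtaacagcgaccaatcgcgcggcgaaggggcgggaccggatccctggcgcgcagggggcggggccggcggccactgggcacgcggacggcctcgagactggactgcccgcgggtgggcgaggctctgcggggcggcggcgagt
Tef, chr15:81802423-81802722, plus strand: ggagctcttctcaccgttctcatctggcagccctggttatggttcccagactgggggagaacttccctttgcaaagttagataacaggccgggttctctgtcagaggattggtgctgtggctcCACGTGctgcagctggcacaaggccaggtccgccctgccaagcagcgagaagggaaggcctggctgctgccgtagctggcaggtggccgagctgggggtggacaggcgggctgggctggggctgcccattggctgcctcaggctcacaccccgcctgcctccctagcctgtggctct
Cry1, chr10:85185005-85185304, minus strand: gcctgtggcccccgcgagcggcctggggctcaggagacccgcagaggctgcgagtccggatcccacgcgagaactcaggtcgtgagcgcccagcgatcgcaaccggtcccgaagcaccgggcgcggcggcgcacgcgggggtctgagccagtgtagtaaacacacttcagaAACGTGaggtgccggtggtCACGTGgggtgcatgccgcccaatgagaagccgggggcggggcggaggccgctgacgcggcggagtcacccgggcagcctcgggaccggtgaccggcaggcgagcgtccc

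Nr1d1 held CACGTT as its reverse complement, Per3 held the D-box at 2 places, Tef held CACGTG, and Cry1 held CACGTG and the reverse complement of CACGTT. The windows of Nr1d2 and Dbp held none of the 3, which says only that these letters are not in these windows. Among clock genes not called, CACGTG was in windows of Ciart (3 places), Per1 and Bhlhe41. CACGTT was in windows of Cry2 and Rorb, and the D-box in 1 of Rorb. Windows of Arntl, Arntl2, Clock, Npas2, Rora, Usp2, Hlf and Nfil3 held none of the 3. The letters were thus not confined to called genes, and a link between them and the calls was not tested. CACGTG was in 7.15% of all 32851 windows, in 9.94% of those of tested genes, in 8.63% of those of genes higher and in 7.19% of those of genes lower with dHLH-Bmal1. CACGTT was in 4.68% of all windows, 5.22% of tested, 4.68% of higher and 8.44% of lower genes, and the D-box in 2.32%, 1.48%, 1.08% and 0.938%. The AP-1 letters TGANTCA were in 7.81% of all windows, 5.32% of tested, 10.1% of higher and 5.31% of lower genes. Windows of a gene with several starts overlap, so these shares are a description.

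Sox10, the transcription factor that maintains the neural crest and melanocyte lineage, was among the genes with the smallest p-values. Sox10 (chromosome 15, 79154908 to 79165240) was at 22.4 and 25.8 CPM with dHLH-Bmal1, 96.9 and 97.2 CPM with WT-Bmal1 and 324 and 328 CPM with EV. The 3 groups did not overlap, and Sox10 fell by 2.04 on the log2 scale between the constructs (SE 0.11, edgeR adjusted p = 3.3e-09). Against EV its log2 fold change was -3.77 with dHLH-Bmal1 and -1.73 with WT-Bmal1, in comparisons that share the EV libraries. Of 26 melanocytic lineage genes, 12 passed the filter, 0 rose and 5 fell, among them Sox10, Erbb3, Cdh19 and Gpnmb. This was a share of 41.7% against 4.63% of all genes, with a median log2 fold change of -0.25. With a library left out, 4 or 5 were called, or 3 without dHLH-Bmal1 replicate 1.

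Those that fell include genes also known from the Schwann cell and glial lineage. Erbb3, a neuregulin receptor, was at 2.87 and 2.40 CPM with dHLH-Bmal1, 6.54 and 13.2 CPM with WT-Bmal1 and 39.3 and 32.6 CPM with EV (log2 fold change -1.89, SE 0.31, edgeR adjusted p = 0.0016). Cdh19, a cadherin of glia and melanoma, changed by -1.19 (edgeR adjusted p = 0.0059), a call that was lost without dHLH-Bmal1 replicate 1 (adjusted p = 0.17). Other members were nearly level: Mitf, the melanocyte regulator, had a log2 fold change of -0.13 (edgeR adjusted p = 0.75), Pax3 of -0.19 and Tfap2a of -0.24. Of the pigment genes Tyr, Tyrp1, Dct, Pmel and Mlana none passed the filter.

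Pou3f1, Lgi4 and Ngfr, genes of the glial and neural crest lineage, were each lower with dHLH-Bmal1. Pou3f1, a POU factor of Schwann cells, was at 0.889 and 0.962 CPM with dHLH-Bmal1 (13 and 6 counts), 8.41 and 14.3 CPM with WT-Bmal1 and 64.0 and 58.5 CPM with EV, a log2 fold change between the constructs of -3.65 (SE 0.33, edgeR adjusted p = 3.4e-06). Lgi4, a secreted protein of the glial lineage, was at 15.5 and 19.4 CPM against 86.0 and 79.4 CPM (-2.29, edgeR adjusted p = 1.1e-08). Ngfr, the low-affinity neurotrophin receptor of neural crest cells, was at 47.0 and 56.1 CPM against 98.9 and 103 CPM (-0.998, edgeR adjusted p = 1.7e-05), with 514 and 502 CPM in EV. In all 3 genes EV was highest and dHLH-Bmal1 lowest.

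Chl1 (chromosome 6, 103510586 to 103750211), a cell adhesion molecule of the L1 family, had the smallest p-value of all genes. It was at 17.2 and 16.99 CPM with dHLH-Bmal1, 97.5 and 108 CPM with WT-Bmal1 and 394 and 408 CPM with EV (log2 fold change -2.59, SE 0.11, edgeR adjusted p = 4.7e-10), and it overlaps 5 genes on its own strand. Ecel1 (chromosome 1, 87147655 to 87156521), an endopeptidase of neurons, was at 29.9 and 27.4 CPM against 134 and 135 CPM (-2.23, SE 0.10, edgeR adjusted p = 7.4e-10). Ajap1, an adherens junction protein, was at 2.46 and 2.88 CPM against 20.03 and 20.02 CPM (-2.95, edgeR adjusted p = 2.9e-08). The remaining largest falls were Rnf144a, a ubiquitin ligase (-3.03), Plpp2, a lipid phosphatase (-2.60), Myo5b, an unconventional myosin (-2.36), and Lgr6, a receptor for R-spondins (-2.24). Myo5b moved to -3.92 without dHLH-Bmal1 replicate 1. All of these kept their calls with each library left out, as did Sox10, Chl1, Ecel1, Lgi4, Pou3f1, Ngfr and Erbb3.

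**Figure D3:**
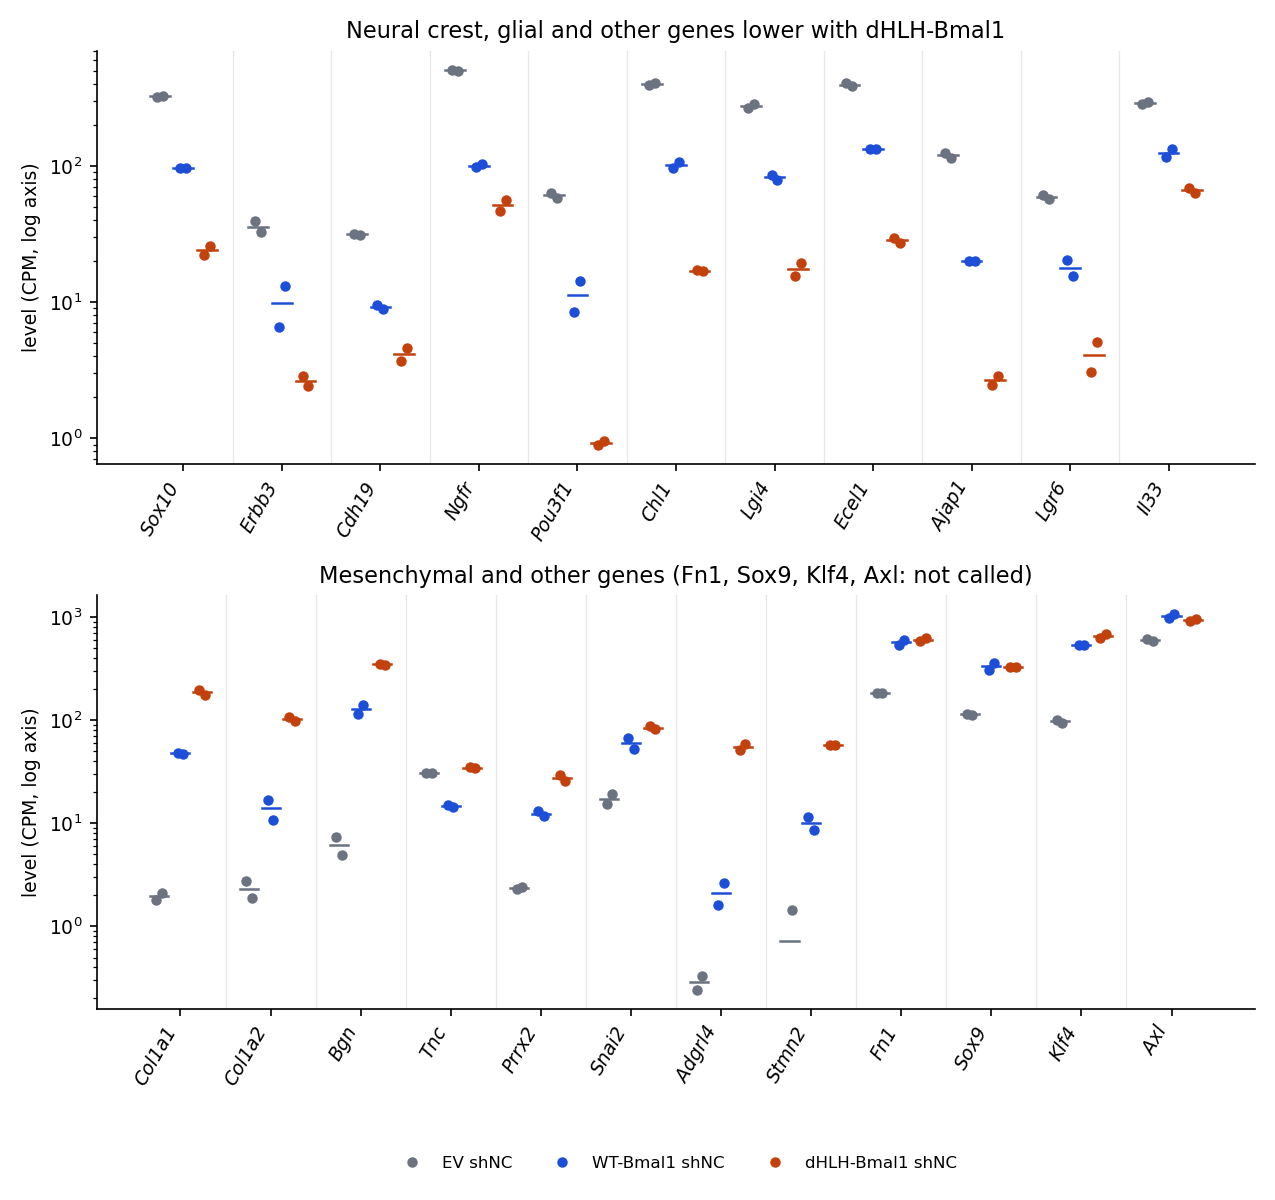
Levels (CPM, log axis) in the shNC libraries with EV, with WT-Bmal1 and with dHLH-Bmal1, 1 point per library with a bar at the mean; 1 EV library with 0 CPM of Stmn2 is not drawn. In the upper panel each gene is highest with EV and lowest with dHLH-Bmal1, and in the lower panel Col1a1, Col1a2, Bgn, Prrx2, Adgrl4 and Stmn2 rise from EV to WT-Bmal1 to dHLH-Bmal1 while Fn1, Sox9, Klf4 and Axl are at similar levels with both constructs.

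Type I collagen was higher with dHLH-Bmal1. Col1a1 (chromosome 11, 94936224 to 94953042), the alpha 1 chain, was at 196 and 178 CPM with dHLH-Bmal1, 47.9 and 47.7 CPM with WT-Bmal1 and 1.82 and 2.09 CPM with EV (log2 fold change between the constructs 1.96, SE 0.12, edgeR adjusted p = 2.8e-08). Col1a2 (chromosome 6, 4504814 to 4541544), the alpha 2 chain, was at 107 and 99.7 CPM, 17.1 and 10.9 CPM and 2.79 and 1.87 CPM in the same order (2.89, SE 0.18, edgeR adjusted p = 2.8e-08). Neither gene overlapped between any of the 3 groups. Of the mesenchymal list of 42 genes, 39 passed the filter, 10 rose and 1 (Ngfr, described above) fell. This was a share of 28.2% against 4.63% of all genes, and the median log2 fold change was 0.16. The 11 calls became 4 without dHLH-Bmal1 replicate 1, 7 without dHLH-Bmal1 replicate 2, 5 without WT-Bmal1 replicate 2 and 13 without WT-Bmal1 replicate 1, and they were 7 in the fit of 18 libraries and 5 in that of 40. The study reports several of these genes as raised by both constructs in the hairpin-free lines. The list was chosen with earlier results of these data known, so its share is a description.

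The other members that rose are mostly matrix genes and their regulators. Tnc, the matrix glycoprotein tenascin C, was at 35.0 and 34.5 CPM with dHLH-Bmal1 and 15.1 and 14.5 CPM with WT-Bmal1 (log2 fold change 1.22, SE 0.15, edgeR adjusted p = 9.3e-05), while EV lay at 30.8 and 31.2 CPM, close to dHLH-Bmal1. Prrx2, a homeobox factor of mesenchyme, was at 29.4 and 25.6 CPM against 13.1 and 11.8 CPM (1.14, edgeR adjusted p = 0.0032), a call lost without dHLH-Bmal1 replicate 1 (adjusted p = 0.11). Fbn1 and Loxl2, which encode a microfibril protein and a collagen cross-linking enzyme, rose by 1.26 and 0.88 (edgeR adjusted p = 0.0069 and 0.022). Col6a1 and Tgfbi, which encode a collagen VI chain and a matrix adapter, rose by 0.60 and 0.53 (edgeR adjusted p = 0.025 and 0.036). The calls of Fbn1, Loxl2, Col6a1 and Tgfbi were lost without dHLH-Bmal1 replicate 1. Snai2, an EMT transcription factor, was at 87.8 and 82.5 CPM against 68.1 and 52.9 CPM (0.49, edgeR adjusted p = 0.047), and its call was lost without WT-Bmal1 replicate 2 or either dHLH-Bmal1 library (0.32 to 0.68, adjusted p up to 0.33). Outside the list, Bgn, the proteoglycan biglycan, was at 351 and 348 CPM with dHLH-Bmal1, 117 and 140 CPM with WT-Bmal1 and 7.39 and 4.96 CPM with EV (1.43, SE 0.11, edgeR adjusted p = 5.2e-07).

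Several genes that the study uses to mark the mesenchymal state did not pass the test between the constructs. Sox9, a SOX factor of mesenchymal melanoma cells, was at 328 and 329 CPM with dHLH-Bmal1, 312 and 358 CPM with WT-Bmal1 and 116 and 113 CPM with EV. Its log2 fold change between the constructs was -0.038 with a 95% interval of -0.22 to 0.15 (edgeR adjusted p = 0.87), and against EV it was 1.53 with dHLH-Bmal1 and 1.57 with WT-Bmal1. Fn1, fibronectin, was at 590 and 625 CPM against 546 and 606 CPM (0.066, interval -0.11 to 0.24). Axl, a receptor kinase, had a log2 fold change of -0.14 (interval -0.30 to 0.024), and Klf4, a Kruppel-like factor, of 0.27 (interval 0.095 to 0.45, edgeR adjusted p = 0.079), which was called with no filter on low counts (edgeR adjusted p = 0.048). Sox9 turned to 0.072 without WT-Bmal1 replicate 2 and Fn1 to -0.011 without WT-Bmal1 replicate 1.

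The largest rises had no common role. Adgrl4, an adhesion receptor best known from endothelium, was at 52.0 and 59.5 CPM with dHLH-Bmal1, 1.60 and 2.66 CPM with WT-Bmal1 and 0.242 and 0.331 CPM with EV (log2 fold change 4.66, SE 0.24, edgeR adjusted p = 3.2e-09). Stmn2, a neuronal tubulin-binding protein, was at 57.3 and 57.2 CPM against 11.5 and 8.56 CPM (2.51, edgeR adjusted p = 2.8e-05). Prl2c2, a secreted hormone of the prolactin family with near-identical copies, was at 70.7 and 52.9 CPM against 6.41 and 10.9 CPM (2.82, edgeR adjusted p = 7.2e-06). Hspb7, a small heat shock protein, rose by 3.08, Cacnb2, a calcium channel subunit that overlaps 7 genes on its own and 8 on the other strand, by 3.37, and 1700012B09Rik by 5.53 on the log2 scale. 1700012B09Rik moved to 9.78 without WT-Bmal1 replicate 1, which held its only WT-Bmal1 counts.

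Some large rises are of another kind. Gm10221, a processed pseudogene, had 133 and 86 counts with dHLH-Bmal1 and 0 and 0 with WT-Bmal1, so it was at least 30.6-fold higher against a floor of 3 counts per library, and EV lay at 23.1 and 19.0 CPM. Gm4767 had 139 and 62 counts with dHLH-Bmal1 and 0 and 0 with WT-Bmal1, at least 26.0-fold higher, with EV at 20.6 and 26.1 CPM, and its call was lost without WT-Bmal1 replicate 2 or dHLH-Bmal1 replicate 1. Among the shNC lines WT-Bmal1 was the one at 0, but Gm10221 also differed between replicates of 1 line, at 0 and 50.7 CPM with dHLH-Bmal1 shMyh9#2 and at 24.9 and 0 CPM in the hairpin-free EV line. In the fit of 18 libraries neither was called (edgeR adjusted p = 0.095 for Gm10221 and 0.24 for Gm4767). Rpl14-ps1, a pseudogene of a ribosomal protein gene, was at 35.0 and 41.2 CPM against 7.08 and 0 CPM, and its log2 fold change was 11.4 without WT-Bmal1 replicate 1 and 2.41 without WT-Bmal1 replicate 2. Reads of such copies may be divided among them. Over all calls, 16 higher genes were at 0 in each WT-Bmal1 library and 7 lower genes at 0 in each dHLH-Bmal1 library. Gm32856, a long non-coding RNA, was called at a high level, with 263 and 264 CPM against 95.3 and 100 CPM (1.42, edgeR adjusted p = 2.8e-08) and EV at 98.5 and 100 CPM.

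Among secreted factors, 2 of 23 tested rose and 1 fell, a share of 13% against 4.63% of all genes. Csf1, the macrophage growth factor, was at 83.9 and 76.9 CPM with dHLH-Bmal1, 48.3 and 40.7 CPM with WT-Bmal1 and 21.9 and 27.4 CPM with EV (log2 fold change 0.85, SE 0.13, edgeR adjusted p = 9.9e-04). Il33, an alarmin, was at 69.3 and 63.5 CPM against 117 and 134 CPM, with 289 and 295 CPM in EV (-0.92, edgeR adjusted p = 2.6e-05). Csf1 and Il33 thus moved in opposite directions, each with EV on the far side of WT-Bmal1. Cxcl12, a chemokine, was at 5.68 and 6.57 CPM against 0.668 and 0.694 CPM (5 and 6 counts; 3.12, edgeR adjusted p = 0.021), and its call was lost with each of the 4 libraries left out (adjusted p up to 0.21). Csf2, Cxcl1, Igfbp6 and Il23a were below the filter, with group means of 0.98 CPM or less.

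The AP-1 and ATF list had the highest median of the lists not yet described, 0.34, with 4 of 15 tested genes higher and 0 lower (26.7%), but 0 were called without WT-Bmal1 replicate 2 or dHLH-Bmal1 replicate 1, 1 without dHLH-Bmal1 replicate 2, 2 without WT-Bmal1 replicate 1, and 0 in the fits of 18 and 40 libraries. Fosl1, a FOS family member, was at 50.4 and 40.2 CPM against 34.7 and 25.6 CPM (0.60, edgeR adjusted p = 0.033, lost without WT-Bmal1 replicate 2 or dHLH-Bmal1 replicate 1). Junb missed the threshold (0.49, edgeR adjusted p = 0.054), and Jun (-0.17) and Jund (0.17) were not called. Over all genes tested, 4.63% were called. Egr1, an immediate early factor, was at 17.1 and 14.1 CPM with dHLH-Bmal1, 3.61 and 5.44 CPM with WT-Bmal1 and 30.5 and 33.8 CPM with EV (1.78, SE 0.23, edgeR adjusted p = 2.0e-04). Etv5, an ETS factor of the MAPK output, was at 44.1 and 41.7 CPM against 63.8 and 73.0 CPM (-0.68, edgeR adjusted p = 0.0020). Ier3, the third called gene of the immediate early and MAPK list (3 of 18 tested), changed by -0.38 (edgeR adjusted p = 0.042), a call lost without WT-Bmal1 replicate 2 (-0.24, edgeR adjusted p up to 0.31 with a library left out) or either dHLH-Bmal1 library.

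Ddit3 and Car9 rose and Hk1 fell among the stress and hypoxia genes. Over all genes tested, 4.63% were called, with 2.2% higher and 2.44% lower. Of 33 ATF4 and unfolded protein response genes, 3 rose and 2 fell (15.2%, median 0.17), led by Ddit3, the stress factor CHOP, at 123 and 131 CPM against 70.1 and 83.4 CPM (0.71, edgeR adjusted p = 9.1e-04). These 5 calls became 1 without either dHLH-Bmal1 library, 2 without WT-Bmal1 replicate 2 and 4 without WT-Bmal1 replicate 1, and 1 in each of the fits of 18 and 40 libraries. Of 46 hypoxia genes, 2 rose and 2 fell (8.70%, median 0.084), and these 4 calls became 0 without dHLH-Bmal1 replicate 1, 1 without WT-Bmal1 replicate 2, 3 without dHLH-Bmal1 replicate 2 and 7 without WT-Bmal1 replicate 1, and 0 in the fit of 40 libraries. Car9, a carbonic anhydrase induced by HIF, was at 12.6 and 10.1 CPM against 3.87 and 2.55 CPM (1.83, edgeR adjusted p = 0.0071), and Hk1, hexokinase 1, at 219 and 220 CPM against 309 and 295 CPM (-0.47, edgeR adjusted p = 0.0029). Car9 lost its call without WT-Bmal1 replicate 2 or dHLH-Bmal1 replicate 1 (adjusted p up to 0.16) and Hk1 without dHLH-Bmal1 replicate 1 (0.072). Hif1a was not called (0.092, interval -0.12 to 0.30).

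Of 26 tested MRTF-SRF targets, 3 rose (Ankrd1, Itgb1 and Tpm4) and 2 fell, Actb among them. This was a share of 19.2% against 4.63% of all genes, with a median of 0.21. Ankrd1, a muscle ankyrin repeat protein that YAP also drives, was at 74.2 and 73.9 CPM against 43.3 and 40.5 CPM, with 4.85 and 4.63 CPM in EV (0.81, edgeR adjusted p = 0.0010). Actb, beta-actin, changed by -0.26 (edgeR adjusted p = 0.012), a call lost without either dHLH-Bmal1 library. Itgb1 (0.30, edgeR adjusted p = 0.037) and Tpm4 (0.32, edgeR adjusted p = 0.039) lost theirs there too, and in the fits of 18 and 40 libraries. Itgb1 also lost its call without WT-Bmal1 replicate 1, and Tpm4 without WT-Bmal1 replicate 2. Srf itself was not called (0.40, 95% interval 0.14 to 0.65, edgeR adjusted p = 0.073). The list had 1 call without either dHLH-Bmal1 library, 3 without WT-Bmal1 replicate 2, 1 in the fit of 18 libraries and 0 in that of 40. Myh9, the heavy chain that the shMyh9 hairpins target, was at 895 and 867 CPM with dHLH-Bmal1 and 976 and 923 CPM with WT-Bmal1 (-0.12, interval -0.28 to 0.045).

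In the remaining lists the shares called were 16.7% of 12 non-muscle myosin II and actinin genes, 15% of 20 YAP-TEAD and Wnt targets, 13.3% of 15 NRF2 targets and metallothioneins, 8% of 25 sterol and fatty acid genes, 5.26% of 38 cell cycle genes and 4.76% of 21 antigen presentation and interferon genes. The last 2 shares are near the 4.63% of all genes. Each of these 6 lists had 0 or 1 calls without either dHLH-Bmal1 library, 0 to 3 without WT-Bmal1 replicate 2 and 1 to 4 without WT-Bmal1 replicate 1. In the cell cycle list, E2f1 changed by -0.56 (edgeR adjusted p = 0.0048, lost without dHLH-Bmal1 replicate 2) and Ccnd2, cyclin D2, by 0.37 (edgeR adjusted p = 0.0082, lost without either dHLH-Bmal1 library). Fasn, fatty acid synthase, was at 160 and 161 CPM against 210 and 234 CPM (-0.48, edgeR adjusted p = 0.0054, lost without either dHLH-Bmal1 library), and Mt2, a metallothionein, at 389 and 424 CPM against 277 and 286 CPM (0.52, edgeR adjusted p = 0.0033, lost without dHLH-Bmal1 replicate 2).

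**Figure D4:**
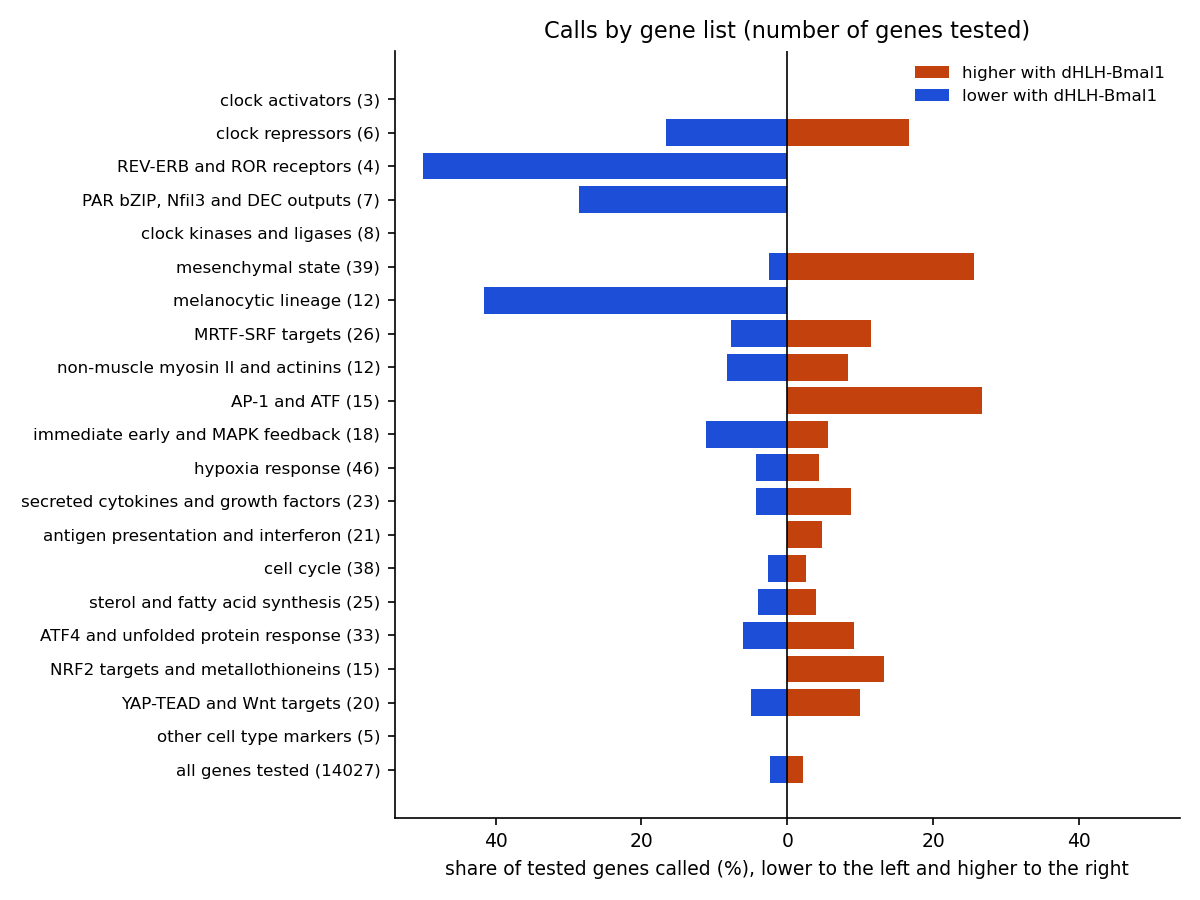
Share of the tested genes of each list called lower (left) and higher (right) with dHLH-Bmal1 against WT-Bmal1, shNC, with the number of genes tested in brackets. The melanocytic list is called to the left only (5 of 12) and the mesenchymal list mostly to the right (10 of 39), against 2.44% and 2.2% of all genes. The lists were chosen with earlier results of these data known, so the shares are a description.

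The same contrast exists in lines with either of 2 hairpins against Myh9 and in YUMM2.1 lines without a hairpin, with no library in common. Myh9 was at 282 and 260 CPM with dHLH-Bmal1 shMyh9#2 and at 230 and 237 CPM with WT-Bmal1 shMyh9#2. With shMyh9#4 it was at 650 and 616 CPM with dHLH-Bmal1 and at 518 and 463 CPM with WT-Bmal1. The dHLH-Bmal1 shMyh9#4 libraries held 3643332 and 6001340 counts. Whether differences between lines follow the level of Myh9 was not tested. With shMyh9#2, 308 of 14848 genes were called between dHLH-Bmal1 and WT-Bmal1 (2.07%), and with shMyh9#4 1060 were (7.14%), in a fit of 18 libraries. The difference of the contrast between shNC and shMyh9#2 was called for 28 genes (0.189%) and that between shNC and shMyh9#4 for 461 (3.1%). These 28 became 3 to 14 and the 461 became 46 to 273 with an shNC library left out. Of the 308 genes higher with dHLH-Bmal1 shNC, 257 had the same sign with shMyh9#2 and 175 with shMyh9#4, and of the 342 lower genes 287 and 186 did. Of the 308, 58 were called in the same direction with shMyh9#2 and 67 with shMyh9#4, and 2 and 32 in the opposite direction. Of the 342, 63 and 43 were called in the same direction, and 0 and 19 in the opposite one. The medians of the 308 were 0.73 with shNC, 0.36 with shMyh9#2 and 0.083 with shMyh9#4, and those of the 342 were -0.71, -0.31 and -0.050. The genes were chosen on the shNC libraries, and their medians were not tested against each other.

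Sox10, Chl1 and Ecel1 had lower values with dHLH-Bmal1 in each of these lines, by different amounts. Sox10 changed by -1.45 with shMyh9#2 (SE 0.13, edgeR adjusted p = 2.7e-06) and by -0.61 with shMyh9#4 (SE 0.12, edgeR adjusted p = 0.0086), and its contrast differed between shNC and shMyh9#4 (edgeR adjusted p = 3.3e-04). Chl1 changed by -2.80 and -0.61, and Ecel1 by -2.15 and -0.44, where the difference from shNC was called for shMyh9#4 (edgeR adjusted p = 3.3e-04 and 3.7e-05) and not for shMyh9#2 (0.87 and 0.99). Ngfr turned to 0.47 with shMyh9#4 (difference, edgeR adjusted p = 3.3e-04). Col1a1 was higher with dHLH-Bmal1 in both, by 1.13 and 1.64, less than with shNC for shMyh9#2 (difference 0.83, edgeR adjusted p = 0.042). Adgrl4 was higher by 1.703 and 3.43, also less than with shNC for shMyh9#2 (difference 2.96, edgeR adjusted p = 4.3e-04).

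For the 6 called clock genes, no difference of the contrast between shNC and the other lines was called (edgeR adjusted p from 0.22 to 0.97). Cry1 was higher with dHLH-Bmal1 in all, by 0.97 with shMyh9#2, 1.53 with shMyh9#4 and 1.29 without a hairpin (edgeR adjusted p = 0.014, 0.0010 and 5.8e-04). Nr1d2 changed by -0.49, -1.08 and -1.35 (edgeR adjusted p = 0.10, 0.0012 and 9.9e-06) and Dbp by 0.038, -1.37 and -1.69 (edgeR adjusted p = 0.97, 0.0069 and 1.3e-05). With shMyh9#2, Nr1d1, Nr1d2, Dbp, Tef and Per3 were not called. Between shNC and shMyh9#2 the differences were -1.12 for Dbp (SE 0.33), -0.68 for Nr1d2 (SE 0.21) and -0.080 for Cry1 (SE 0.28). That test recovered 14.9% of simulated 2-fold differences, so a difference not called is no sign of equal contrasts.

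In the hairpin-free lines the EV and WT-Bmal1 libraries did not group by construct. On log2 CPM, EV replicate 1 correlated more closely with WT-Bmal1 replicate 1 (0.9895) than with EV replicate 2 (0.9733), and EV replicate 2 most closely with WT-Bmal1 replicate 2 (0.9859), so values are given as labelled and without WT-Bmal1 replicate 1. The closest libraries share a replicate number, and a fault in a label and something shared by a replicate number cannot be told apart here. In a fit of 24 libraries, 3084 of 15374 genes were called between dHLH-Bmal1 and WT-Bmal1 (20.1%), and 1549 (9.56%) without that library. The difference from shNC was called for 1062 genes (6.91%), and for 372 without it. As labelled, 246 of the 308 genes higher with shNC had the same sign without a hairpin (160 called, and 10 called in the opposite direction), as did 258 of the 342 lower genes (189 called, and 25 in the opposite direction). Sox9 had a log2 fold change of 2.18 without a hairpin (1.47 without that library; difference from shNC, edgeR adjusted p = 0.054 and 0.23), so for Sox9 a difference between the lines was not called.

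Other mesenchymal genes differed between the lines. With WT-Bmal1, Klf4 was at 34.8 and 66.1 CPM without a hairpin and 540 and 544 CPM with shNC. Fn1 was at 138 and 278 CPM and at 546 and 606 CPM. With dHLH-Bmal1, Klf4 was at 409 and 387 CPM without a hairpin and 631 and 689 CPM with shNC. Fn1 was at 723 and 632 CPM and at 590 and 625 CPM. Hairpin-free EV lay near hairpin-free WT-Bmal1, at 32.3 and 71.8 CPM for Klf4 and 143 and 289 CPM for Fn1. Klf4 changed by 3.01 without a hairpin (2.60 without that library), Snai2 by 2.63 (2.25), Fn1 by 1.73 (1.30) and Col1a1 by 4.37 (3.87), each more than with shNC (edgeR adjusted p of the difference from 1.8e-04 to 0.0058, and from 0.0017 to 0.037 without that library). Sox10 (-2.81, and -2.65 without that library) and Chl1 (-3.58 and -3.39) fell more than with shNC as labelled (differences 0.79 and 0.99, edgeR adjusted p of the difference 0.0081 and 0.011), and without that library the differences were 0.61 and 0.80 and were not called (edgeR adjusted p 0.092 for both). Egr1 went the other way, with -1.49 without a hairpin against 1.78 with shNC (edgeR adjusted p of the difference 1.7e-04, and 9.6e-04 without that library). The hairpin-free lines did not pass through the hairpin transduction and selection, and that step cannot be told apart from the hairpin.

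**Figure D5:**
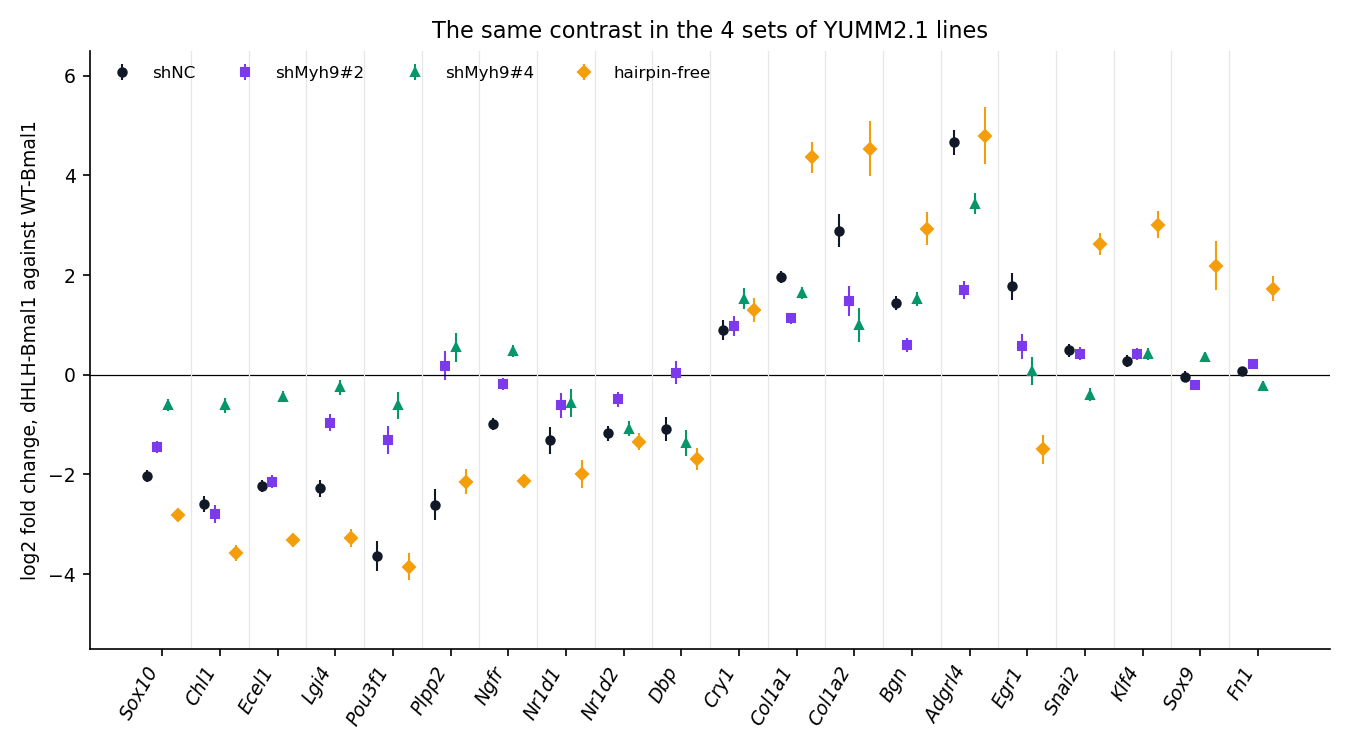
Log2 fold change of dHLH-Bmal1 against WT-Bmal1 for 20 genes in lines with shNC, shMyh9#2 and shMyh9#4 (fit of 18 libraries) and without a hairpin (fit of 24 libraries), with standard errors as bars. Klf4, Snai2 and Fn1 lie between 0 and 0.5 with shNC and above 1.5 without a hairpin, and Sox10, Chl1 and Ecel1 are nearest to 0 with shMyh9#4.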

How the data were processed

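RNA of 40 libraries was prepared with QuantSeq 3′ kits. The counts deposited by the authors are whole reads per Ensembl gene, made per the study's methods with bowtie2 and RSEM on mm10. The submitters' notes give RSEM 1.2.3 and the study's methods a later version, the strand setting of the counting is not given in the sources used here, and mitochondrial transcripts were not analysed here. Of 51789 genes in the table, 27946 had a count and 99.63% matched a GENCODE symbol; 0 columns of values went unused. Groups follow the sample labels.

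Here, edgeR 4.0.16 in R 4.3.3 was run with TMM factors, filterByExpr and the quasi-likelihood test at a Benjamini-Hochberg adjusted p under 0.05, on 8 libraries of 4 groups, with 18-library and 24-library fits for differences between lines. Standard errors are the log2 fold change over the root of the F statistic. The members and the gene lists were chosen with earlier results of these data known. Named are all clock genes, genes the study names, the 10 genes in each direction with the largest change (mean of at least 50 counts, groups apart), the 5 in each direction with the smallest p, and up to 4 called genes of each list (the 2 with the smallest p where none was called); a few other list members are named with a count and were chosen after their values were seen. Alternatives were DESeq2 1.42.0 (size factors, Wald test), no filter, a mean of at least 10 counts, other sets of libraries, a replicate block, a log2 fold change of at least 1, and each library left out. In a simulation with known changes, the 8-library fit recovered 20.9% of 1.5-fold, 61.2% of 2-fold and 87.9% of 4-fold changes. Of its 129 calls there, 12.4% were false, more than the threshold of 0.05 aims at. Of simulated 2-fold differences between lines, 14.9% were recovered for shNC against shMyh9#2 and 23.9% for shNC against the hairpin-free lines. False calls were 2.04% and 8.47% in these 2 tests. Small changes and differences between lines are therefore often missed. In the 4 groups of the 8-library fit, same-numbered libraries did not deviate together (correlation 0.067 between the WT-Bmal1 and dHLH-Bmal1 groups), so replicate numbers were not taken as pairs. The hairpin-free libraries were not part of that check. Replicates differed by more than sampling noise. A few named genes are not reported here.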

Additional observations from a re-analysis of the deposited data

Results flagged for a closer look

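The change from WT-Bmal1 to dHLH-Bmal1 differed between lines, by the test of the difference itself in edgeR, for 28 genes between shNC and shMyh9#2, 461 between shNC and shMyh9#4 and 1062 between shNC and the hairpin-free lines. Values below are the log2 fold change with shNC minus that in the other line, for the named genes whose difference was called.

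Against shMyh9#2, the difference was positive for Adgrl4 (2.96), Cacnb2 (2.79) and Col1a1 (0.83). It was negative for Plpp2 (-2.78), Pou3f1 (-2.33) and Lgi4 (-1.32), 3 genes that fell more with shNC.

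Against shMyh9#4, a positive difference was found for Col1a2 (1.88), Egr1 (1.702), Ankrd1 (1.67), Myl12a (1.32), Srf (1.10), Snai2 (0.89) and Mt2 (0.89). Negative differences were found for Rnf144a (-3.17), Plpp2 (-3.15), Pou3f1 (-3.02), Ajap1 (-2.24), Lgi4 (-2.02), Chl1 (-1.98), Ecel1 (-1.79), Lgr6 (-1.59), Ngfr (-1.46), Sox10 (-1.43), E2f1 (-1.001), Pdia4 (-0.97), Pfkl (-0.84), Fasn (-0.81), Actb (-0.81), Hk1 (-0.72), Axl (-0.52) and Myh9 (-0.51). Sox10, Chl1, Ecel1, Lgi4, Ajap1, Pou3f1 and Rnf144a, all lower with dHLH-Bmal1 with shNC, belong to the negative set.

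Against the hairpin-free lines, positive differences were those of Rpl14-ps1 (10.9), Egr1 (3.28), Cdh19 (2.08), Erbb3 (2.01), Rorb (1.37), Etv5 (1.21), Ngfr (1.16), Ecel1 (1.10), Lgi4 (1.01), Chl1 (0.99), Sc5d (0.91), Sox10 (0.79) and Il33 (0.69). Negative ones were those of Ankrd1 (-3.72), Klf4 (-2.72), Mt2 (-2.52), Col1a1 (-2.40), Snai2 (-2.13), Gm32856 (-1.87), Bhlhe41 (-1.68), Fn1 (-1.65), Trib3 (-1.58), Bgn (-1.49), Csf1 (-1.37), Nfil3 (-1.35), Ak4 (-1.29), Axl (-1.13), Arntl (-1.09), Jund (-0.91), Atf4 (-0.81), Tnc (-0.77), Actb (-0.67) and Atf6 (-0.64). Hairpin-free WT-Bmal1 replicate 1 lay closest to EV replicate 1, and without that library 16 of these 33 genes kept a called difference and 33 kept its sign. The fold of Rpl14-ps1 rests on libraries with 0 counts.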

How the results depend on the processing

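The 650 genes called became 1032 with no filter on low counts, 284 in the fit of 18 libraries, 246 in that of all 40 libraries and 224 with a log2 fold change of at least 1, where fewer genes can pass by construction, and 166 to 814 with a library left out. They were 652 with DESeq2 size factors, 611 with DESeq2's Wald test and 448 with the 4 libraries alone. The 28 genes that differed from shMyh9#2 became 72 with the Wald test, 141 with no filter and 3 to 14 with a library left out, the 461 that differed from shMyh9#4 became 899, 1339 and 46 to 273, and the 1062 that differed from the hairpin-free lines became 372 to 702 with a library left out. The cause was not tested. With a replicate block the counts were 635, 25, 351 and 1063, and of 68 named calls Snai2 and Lgr5 were lost. With a library left out its group has 1 library, which is assumed to vary like the others. Of the 68 named calls, 34 were kept with each library left out, 28 under all alternatives, and 68 kept their sign. Klf4, Wee1, Atf5 and Pdgfrb were called with no filter on low counts, and Wee1 also without WT-Bmal1 replicate 1. Calls of Cry1, Prrx2 and Ankrd1 were lost in the fit of 40 libraries. Genes that were not called changed sign with a library left out: Arntl2 ranged from -0.14 to 0.21 (-0.051 without dHLH-Bmal1 replicate 2), Per2 from -0.57 to 0.18, Cry2 from -0.090 to 0.46, Ciart from -0.52 to 0.29, Rora from -0.37 to 0.12, Usp2 from -0.12 to 0.12 (0.058 without dHLH-Bmal1 replicate 2, and 0.0096 with the replicate block), Sox9 from -0.14 to 0.072, Fn1 from -0.011 to 0.15 and Twist2 from -0.33 to 0.14. At 6347481 counts in the shallowest library, genes near 1 CPM rest on few reads, and a miss there is no sign of equal levels.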
